A study of Mus musculus with 96 samples.

Results

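The 58 genes described here encode transcription factors of early development that lie outside the Hox clusters: 8 paired box (Pax) genes, 7 LIM homeobox (Lhx) genes, 3 sine oculis genes (Six2, Six3 and Six6), 5 NK homeobox genes, 5 genes that pattern the forebrain, midbrain and hindbrain (Otx1, Otx2, Gbx2, En1 and En2), 4 Iroquois (Irx) genes, 8 other homeobox genes, 4 Gata genes, 6 T-box (Tbx) genes, 5 forkhead (Fox) genes and 3 Sox genes. A peak was a member when the gene that the study's annotation attached to it was 1 of these 58. With that rule 358 of 22815 peaks were members, and 56 of the 58 genes had at least 1 peak. Nkx2-2 and Sox21 had none by symbol. An H3K4me3 peak of NeuN- nuclei within 2 kb of the Nkx2-2 promoter was attached to Nkx2-2os, and 3 peaks within 2 kb of the Sox21 promoter (Suz12 in NeuN+ nuclei, H3K4me3 and H3K27me3 in NeuN- nuclei) to Gm4675; these were not counted as members.

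The study prepared chromatin from the hippocampus of male C57BL/6N mice aged 6 months. Mice deficient in Ogg1 (Ogg1-/-), in Mutyh (Mutyh-/-) or in both (DKO, the double knockout) were compared with wild type (WT), 4 genotypes in all. Ogg1 and Mutyh encode DNA glycosylases that act on oxidised guanine or on the adenine paired with it. Nuclei were sorted by NeuN (Rbfox3), a nuclear protein of most mature neurons, into NeuN+ and NeuN- fractions, and each library came from hippocampi pooled from several animals of 1 genotype. H3K4me3, H3K27me3 and Suz12 were immunoprecipitated from each fraction in 3 libraries per genotype, which gives 72 libraries in 6 tables of 12. Values are normalised reads, that is the reads in a peak (401 bp wide) scaled by 1 factor per library, so that 1 read was worth 0.623 to 2.26 units. Each table was normalised on its own, so levels were compared between genotypes within a table and are only set side by side between tables.

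H3K4me3 marks active or poised promoters. H3K27me3 is laid down by the Polycomb repressive complex PRC2, of which Suz12 is a core subunit, and PRC2 is best known for holding developmental regulators silent in cells that do not use them. Promoters that carry H3K4me3 and H3K27me3 together are called bivalent and were first described at such regulators in embryonic stem cells. In mammals PRC2 is recruited mainly to long stretches of unmethylated CG dinucleotides, and the promoters of these transcription factors are rich in them.

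Promoter windows of 300 bases, from 250 bases before to 50 after a transcription start, were taken from RefSeq for build GRCm38.p6, the build of the peak coordinates, and were found for 45 of the 58 genes (58 windows). The dinucleotide CG, which reads the same on both strands, was counted in each. The members' windows held a median of 21 CG (range 4 to 42), against 7 over all 32851 windows. The 34 member windows with a Suz12 peak of NeuN+ nuclei within 2 kb held a median of 24, and the 24 without one a median of 14.5. The 6 windows below were chosen among those that a peak overlapped because they span that range, and each CG is in capitals.
Barhl2 (chr5:106458117-106458416, minus strand): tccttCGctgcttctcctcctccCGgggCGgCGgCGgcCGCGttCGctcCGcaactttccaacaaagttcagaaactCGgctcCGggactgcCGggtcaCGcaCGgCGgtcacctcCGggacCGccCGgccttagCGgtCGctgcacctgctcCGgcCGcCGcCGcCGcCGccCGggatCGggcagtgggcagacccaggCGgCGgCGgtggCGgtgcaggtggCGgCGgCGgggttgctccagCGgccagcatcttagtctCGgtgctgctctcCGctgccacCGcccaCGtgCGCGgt
Nkx6-2 (chr7:139582748-139583047, minus strand): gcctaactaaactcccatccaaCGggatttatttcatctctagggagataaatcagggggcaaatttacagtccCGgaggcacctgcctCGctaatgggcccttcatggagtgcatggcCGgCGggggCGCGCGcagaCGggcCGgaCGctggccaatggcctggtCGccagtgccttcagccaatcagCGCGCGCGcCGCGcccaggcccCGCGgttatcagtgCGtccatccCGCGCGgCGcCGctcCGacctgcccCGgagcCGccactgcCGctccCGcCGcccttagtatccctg
Pax2, downstream start (chr19:44756656-44756955, plus strand): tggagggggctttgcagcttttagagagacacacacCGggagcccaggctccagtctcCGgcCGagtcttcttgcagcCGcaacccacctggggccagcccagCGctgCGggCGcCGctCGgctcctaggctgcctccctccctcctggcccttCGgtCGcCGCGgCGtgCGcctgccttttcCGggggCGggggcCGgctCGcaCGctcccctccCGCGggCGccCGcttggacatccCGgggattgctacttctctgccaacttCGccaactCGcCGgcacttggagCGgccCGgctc
Emx2 (chr19:59458440-59458739, plus strand): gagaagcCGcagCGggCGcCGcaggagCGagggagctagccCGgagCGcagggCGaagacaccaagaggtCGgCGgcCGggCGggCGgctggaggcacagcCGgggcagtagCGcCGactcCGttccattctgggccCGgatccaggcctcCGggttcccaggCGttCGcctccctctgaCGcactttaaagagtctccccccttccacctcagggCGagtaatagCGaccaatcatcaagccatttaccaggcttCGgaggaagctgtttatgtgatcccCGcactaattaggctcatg
Pax6 (chr2:105668646-105668945, plus strand): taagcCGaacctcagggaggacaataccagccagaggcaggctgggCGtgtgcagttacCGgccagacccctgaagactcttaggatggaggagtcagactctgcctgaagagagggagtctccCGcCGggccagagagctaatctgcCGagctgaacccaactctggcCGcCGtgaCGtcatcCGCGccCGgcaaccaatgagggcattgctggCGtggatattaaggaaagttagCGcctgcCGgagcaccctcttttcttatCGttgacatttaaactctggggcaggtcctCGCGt
Pax2, upstream start (chr19:44746351-44746650, plus strand): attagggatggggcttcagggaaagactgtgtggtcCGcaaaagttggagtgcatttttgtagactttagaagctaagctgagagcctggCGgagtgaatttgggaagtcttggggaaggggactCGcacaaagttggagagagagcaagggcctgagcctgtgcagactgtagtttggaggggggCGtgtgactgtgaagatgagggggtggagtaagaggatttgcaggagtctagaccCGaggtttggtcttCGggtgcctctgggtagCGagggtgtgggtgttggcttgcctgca

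The Barhl2 window held 42 CG, a number reached by 3.03% of all windows, and was overlapped by a Suz12 peak of NeuN+ nuclei. The Nkx6-2 window held 32 (reached by 9.52%) and lay under an H3K27me3 peak of NeuN+ nuclei. The downstream Pax2 window held 30 (11.7%) and was overlapped by a Suz12 peak of NeuN+ nuclei, and the Emx2 window held 26 (16.9%) and was overlapped by an H3K4me3 peak of that fraction. The Pax6 window held 18 (29.7%) and was overlapped by H3K27me3 peaks of both fractions. The upstream Pax2 window held 7 (52.1%) and was still overlapped by a Suz12 peak, so a Suz12 peak did not always lie on a window with many CG.

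The plot of peaks by gene and table shows which marks each gene carried. In NeuN+ nuclei 49 of the 58 genes had an H3K27me3 peak (157 peaks), 45 had a Suz12 peak (76 peaks) and 18 had an H3K4me3 peak (22 peaks). Suz12 or H3K27me3 was present at 53 genes and both at 41. The members made up 9.81% of all Suz12 peaks of NeuN+ nuclei and 3.80% of the H3K27me3 peaks, but 0.174% of the H3K4me3 peaks. In NeuN- nuclei 50 genes had an H3K27me3 peak (96 peaks), 4 had an H3K4me3 peak and 3 a Suz12 peak. H3K27me3 was listed at 46 genes in both fractions, but not always at the same site. Across the fractions the nearest peaks overlapped at 7 of the 46 genes and were within 2 kb at 28. An H3K27me3 promoter peak was listed at 33 of the 49 genes in NeuN+ nuclei and at 29 of the 50 in NeuN- nuclei. All counts of genes rest on the attached symbol: an H3K27me3 peak of NeuN- nuclei that overlapped the Lhx1 promoter window was attached to Lhx1os, and 1 within 2 kb of the Six6 window in NeuN+ nuclei to 4930447C04Rik. A peak belonged to a table once it was called in at least 2 of 3 replicates, and some were listed with few WT reads: 116 of the 157 H3K27me3 peaks of NeuN+ nuclei and 41 of the 96 of NeuN- nuclei had a read in every WT library, and 1 and 3 respectively had no WT read.

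**Figure D1:**
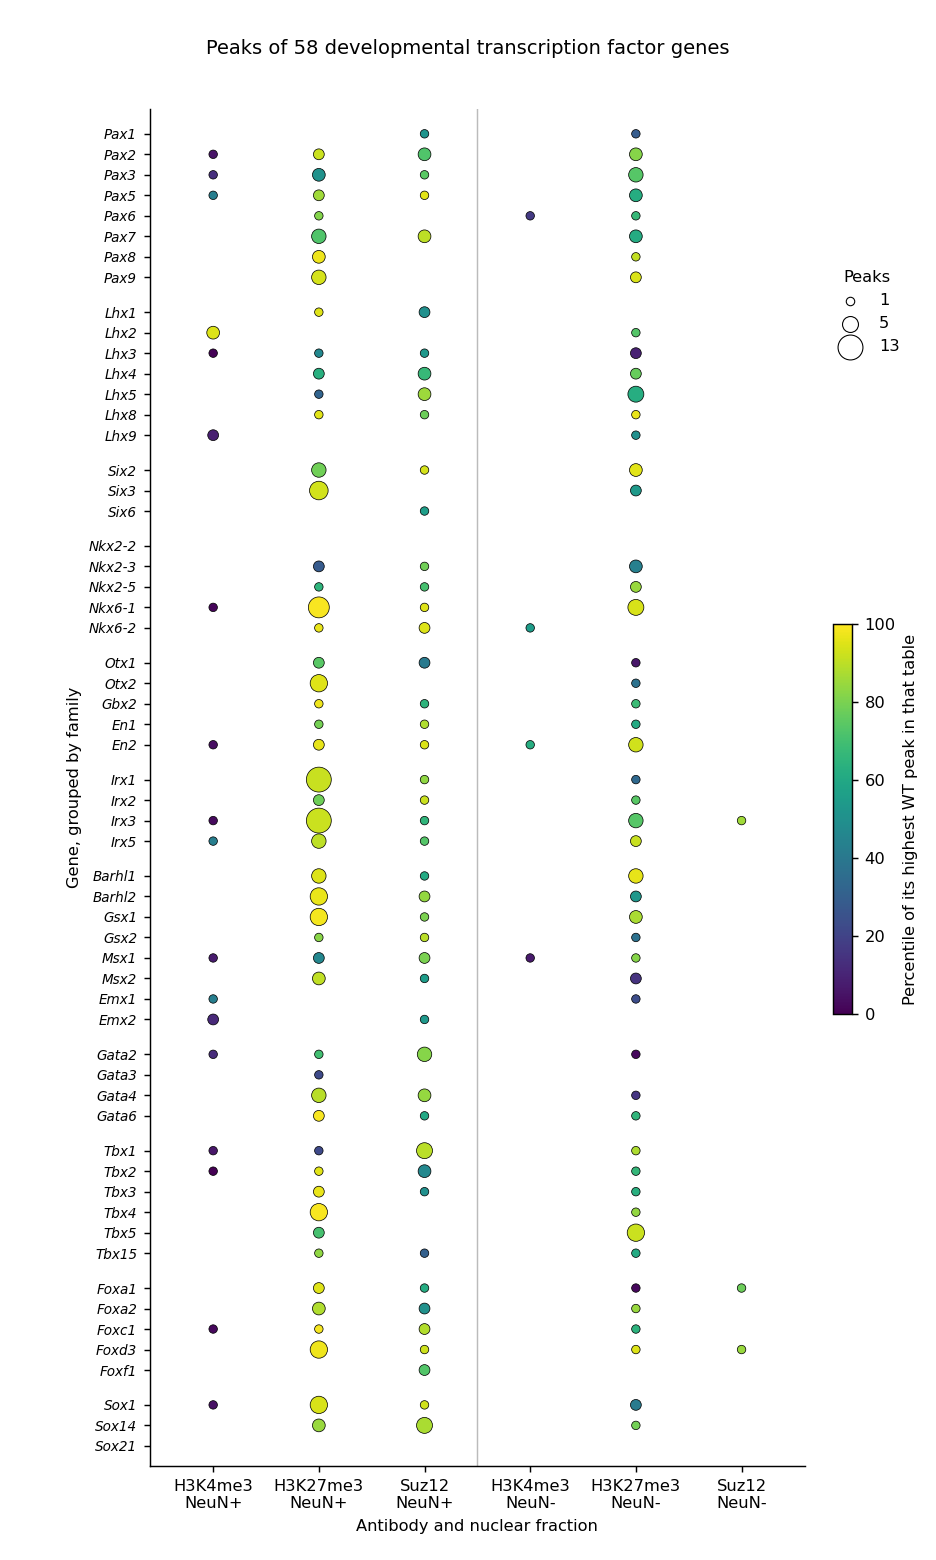
Peaks of the 58 genes (rows, by family) in the 6 tables (columns); the circle area grows with the number of peaks, and the colour gives the percentile of the gene's highest WT peak among all peaks of that table. H3K27me3 is present at 49 genes in NeuN+ and 50 in NeuN- nuclei, Suz12 at 45 and 3, and H3K4me3 at 18 and 4.

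Within their tables the members stood at different heights. The median Suz12 peak of a member in NeuN+ nuclei had a WT mean of 14.6 normalised reads, against 11.9 over all 775 peaks, and the median member peak lay at the 64.3rd percentile. For H3K27me3 of NeuN+ nuclei the medians were 5.92 and 5.20, and for that of NeuN- nuclei 3.83 and 3.31. For H3K4me3 in NeuN+ nuclei they were 10.2 and 23.4, and the median member peak lay at the 6.89th percentile, so the H3K4me3 peaks of the members were low for this table. These levels are a description and were not tested.

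The 3 antibodies also marked different places around the genes, as the plot of distances shows. Suz12 peaks of NeuN+ nuclei lay close to starts, with a median distance of 474.5 bp, 74 of 76 within 10 kb and 72.4% annotated as promoter (60.8% of all Suz12 peaks). H3K27me3 peaks of NeuN+ nuclei lay far out, with a median distance of 27.6 kb against 17.9 kb over all peaks of that table; 21.7% were annotated as promoter (26.5% of all), 83 were distal intergenic and 32 lay over 100 kb from a start. Of the members' 22 H3K4me3 peaks 63.6% were annotated as promoter, against 93.2% of all H3K4me3 peaks of that table, a difference that was not tested. The observed to expected ratio of CG was 0.82 at the median member Suz12 peak and 0.26 at the median member H3K27me3 peak. At the 41 genes with both in NeuN+ nuclei, the centres of the nearest Suz12 and H3K27me3 peaks were a median of 1265 bp apart, and they overlapped at 8 genes.

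**Figure D2:**
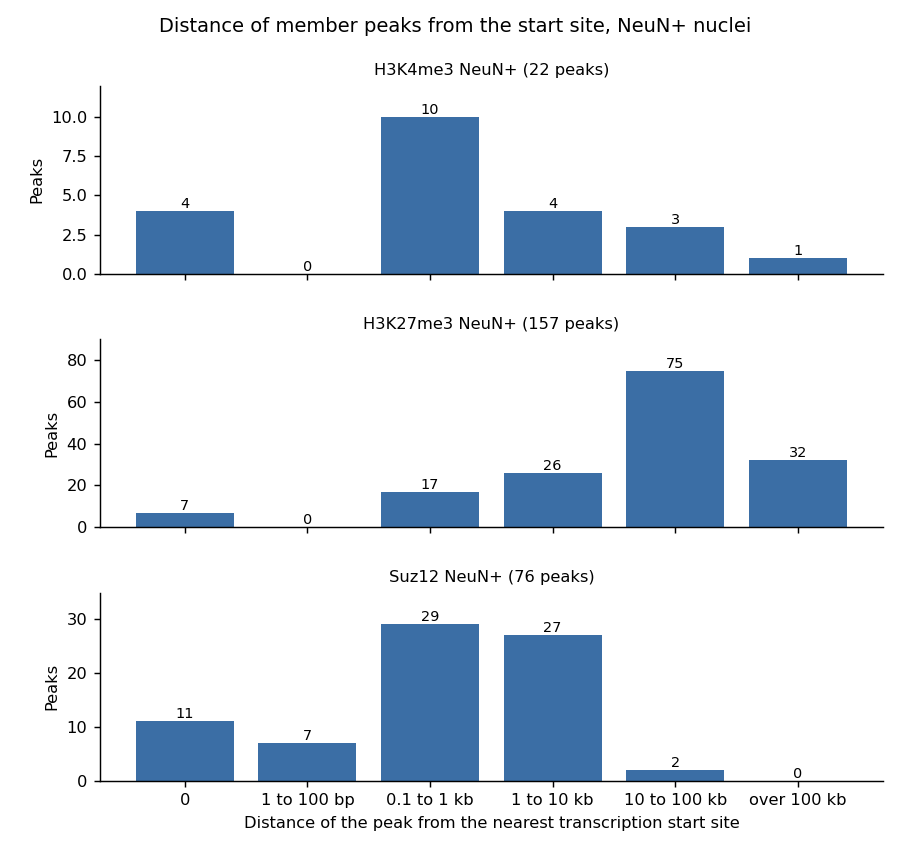
Number of member peaks (vertical axis) by distance from the nearest transcription start site (horizontal axis, classes), for the 3 antibodies in NeuN+ nuclei. Of 157 H3K27me3 peaks 75 lie 10 to 100 kb away and 32 lie farther, while 74 of 76 Suz12 peaks lie within 10 kb.

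The Iroquois genes, homeobox regulators of heart, limb and neural patterning, carried the largest number of H3K27me3 peaks in NeuN+ nuclei. All 4 had one, with 32 peaks between them. Irx1 had 13, between 301949 bp upstream and 336176 bp downstream of its start on chromosome 13, and Irx3 had 13, between 267741 bp upstream and 93199 bp downstream on chromosome 8. Their WT means ran from 2.41 to 11.5 at Irx1 and from 0.734 to 11.7 at Irx3. Nkx6-1, a regulator of ventral neural tube and pancreatic beta cells, followed with 9, then Six3, an eye and forebrain regulator, with 7. In NeuN- nuclei Irx1 had 1 peak and Irx3 had 4. Peaks were attached to the nearest gene, so distant ones may belong to another gene of the region.

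The 14 genes that carried all 3 marks in NeuN+ nuclei were Pax2, Pax3, Pax5, Lhx3, Nkx6-1, En2, Irx3, Irx5, Msx1, Gata2, Tbx1, Tbx2, Foxc1 and Sox1. Over all 12866 genes with a peak in NeuN+ nuclei 250 did. Being listed in 3 tables does not place the marks on the same stretch of DNA: the nearest H3K4me3 and Suz12 peaks overlapped at 7 of 15 genes that had both (the 14 and Emx2) and were within 2 kb at 10. They overlapped at En2, Tbx1, Tbx2, Foxc1, Nkx6-1, Pax3 and Sox1. At Irx5 they were 102636 bp apart, at Pax5 39613 bp and at Pax2 26503 bp. The nearest H3K4me3 and H3K27me3 peaks overlapped at 2 of the 14 genes, Nkx6-1 and Foxc1, and were within 2 kb at 4. Their centres were a median of 3088.5 bp apart, and up to 41473 bp. Whether the marks shared a nucleosome or a cell was not measured. The WT levels given next for these genes are those of the gene's highest WT peak for each antibody. The 3 values of a gene can thus lie at different sites.

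En2 patterns the midbrain and hindbrain. Its H3K4me3 peak (chr5:28166022-28166422, promoter) read 7.72, 8.78 and 7.54 in the 3 WT libraries of NeuN+ nuclei. Its Suz12 peak 108 bp away read 14.8, 38.6 and 32.2, and the H3K27me3 peak at the start read 14.2, 14.4 and 14.6. The H3K4me3 peak was therefore low (3.62nd percentile of its table) and the other marks high (94.3rd and 96.2nd). Nkx6-1 lay at the 1.32nd, 99th and 95.0th percentiles for H3K4me3, H3K27me3 and Suz12, with WT means of 4.96 ± 2.09, 21.5 ± 9.73 and 30.0 ± 11.2 (SD, n = 3). Foxc1, a forkhead regulator of mesoderm and meninges, lay at the 2.01st, 98.7th and 88.5th, with 6.15 ± 0.885, 19.9 ± 6.31 and 22.6 ± 9.59.

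Among the Pax genes, Pax5, a regulator of B cells and the midbrain, had the highest Suz12 peak of any member (chr4:44703768-44704168, at the start) with 8.05, 42.6 and 43.0 in the 3 WT libraries, and its H3K4me3 peak, 18432 bp upstream, read 21.3 ± 4.56. Pax2 (kidney and midbrain) read 9.26 ± 6.27 for H3K4me3, 11.7 ± 2.51 for H3K27me3 and 16.4 ± 8.56 for Suz12. Pax3 (neural crest and muscle) read 12.9 ± 5.66, 5.27 ± 2.32 and 16.7 ± 4.14.
The Suz12 values of the first replicate were the lowest of the 3 at Pax5 and the highest at Pax2 and Pax3, so the replicates did not keep 1 order over these genes.
Of the homeobox genes, Lhx3 (pituitary and motor neurons) read 3.24 ± 2.98, 4.91 ± 4.83 and 12.5 ± 6.67 for H3K4me3, H3K27me3 and Suz12. Msx1 (neural crest and limb) read 10.6 ± 1.04, 4.90 ± 2.07 and 18.6 ± 8.13. Irx3 read 6.85 ± 4.71, 11.7 ± 6.43 and 14.9 ± 9.51, and Irx5 21.4 ± 13.2, 11 ± 7.68 and 16.5 ± 14.4.
Suz12 was listed at 0 in the first WT library at Irx5, where the others read 26.7 and 22.8.
Gata2, a blood and interneuron regulator, read 12.6 ± 3.57, 7.18 ± 7.81 and 19.3 ± 10.9. Tbx1 (pharyngeal arches) read 9.75 ± 7.16, 2.99 ± 2.80 and 23.5 ± 14, and Tbx2 (heart and limb) 1.33 ± 1.48, 14 ± 5.73 and 11.4 ± 9.74. Sox1, a marker of neural progenitors, read 8.70 ± 7.17, 12.6 ± 2.63 and 26.1 ± 8.81.
Over all member peaks of NeuN+ nuclei the median ratio of SD to mean in WT was 0.458 (H3K4me3), 0.571 (H3K27me3) and 0.609 (Suz12), and differences between neighbouring genes were not tested.

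For H3K27me3 in NeuN+ nuclei the 3 highest were Tbx4, a hindlimb regulator (29.6, 22.1 and 20.7 in WT, chr11:85889832-85890232, at the start), Nkx6-1, and Gata6, an endoderm and heart regulator (17.5, 21.0 and 24.1). For Suz12 they were Pax5, Nkx6-1 and Nkx6-2. In NeuN- nuclei the highest H3K27me3 peaks were those of Lhx8, a regulator of forebrain cholinergic neurons (6.62, 13.3 and 11.5), Barhl1 (9.27, 20.7 and 0) and Six2, a kidney progenitor factor (17.2, 11.6 and 0). The last 2 had no read in the third WT library, and their peaks lay 57892 and 112026 bp from the start.

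Lhx2, Lhx9 and Emx1 were the 3 genes with H3K4me3 and neither H3K27me3 nor Suz12 in NeuN+ nuclei. Lhx2 and Emx1 are known for their part in forming the cortex and hippocampus, and Lhx9 is a close relative of Lhx2. Lhx2 had 3 H3K4me3 peaks, and the one at its first start (chr2:38339379-38339779) read 42.4, 28.3 and 39.8 in WT, at the 94.9th percentile of the table and above every other member. Emx1 (chr6:85188215-85188615, promoter) read 33.4, 5.85 and 24.8, and the higher of 2 Lhx9 peaks (chr1:138841329-138841729) 12.9, 10.7 and 9.69. Emx2, the partner of Emx1 in the dorsal forebrain, carried H3K4me3 (12.9, 8.78 and 15.1 at its start) and a Suz12 peak (2.68, 7.92 and 26.8), but no H3K27me3 peak.
In NeuN- nuclei the same 3 genes carried an H3K27me3 promoter peak and no H3K4me3. The values were low: 1.32, 2.49 and 11.5 in WT at Lhx2, 5.29, 0 and 4.61 at Lhx9, and 1.32, 3.32 and 0 at Emx1. The Emx1 peak read higher in the single knockouts, with 11.5, 3.17 and 11.6 in Mutyh-/- and 9.64, 1.63 and 8.35 in Ogg1-/-. The Mutyh-/- difference did not pass in the limma fit (log2 fold change 2.01 ± 1.16 SE, unadjusted p = 0.0822, adjusted p = 0.998). Nor did that in Ogg1-/- (1.57 ± 1.16 SE, unadjusted p = 0.175, adjusted p = 0.963). With WT this low the Emx1 peak may have been listed through knockout libraries, which favours a higher knockout value.

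Nkx6-2 showed the reverse, and Pax6 did so in part. Nkx6-2 is expressed in myelinating oligodendrocytes, and Pax6 in neural progenitors and astrocytes. In NeuN- nuclei Nkx6-2 had an H3K4me3 promoter peak (chr7:139582192-139582592) with 4.15, 18.9 and 4.73 in WT, and no H3K27me3 or Suz12 peak. In NeuN+ nuclei it had no H3K4me3 peak, an H3K27me3 peak with 15.3, 15.5 and 13.8 and a Suz12 peak (chr7:139582175-139582575) with 8.05, 44.6 and 36.2. The H3K4me3 peak of one fraction and the Suz12 peak of the other thus covered nearly the same bases. Pax6 had H3K4me3 in NeuN- nuclei and not in NeuN+ nuclei, at a start farther into the gene than its H3K27me3 peaks (8.30, 3.15 and 4.73) and H3K27me3 in both (7.67, 7.75 and 11.2 in NeuN+ nuclei, against 3.97, 1.66 and 8.07 in the NeuN- fraction). En2 and Msx1 had H3K4me3 peaks in both fractions, and their NeuN- values of 19.4, 10.2 and 0 at En2 and 5.53, 3.94 and 1.18 at Msx1 spread too widely to be ranked.
Between fractions a gene that has a peak in 1 table and none in the other is only listed differently, since the tables held different numbers of peaks (12628 H3K4me3 peaks in NeuN+ against 3270 in NeuN- nuclei), and the absence of a peak was not tested. In these bulk nuclei fewer cells of a type and less mark per cell cannot be told apart.

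Suz12 peaks of NeuN- nuclei were listed at 3 members, Irx3, Foxd3, a neural crest factor, and Foxa1, an endoderm factor. Irx3 (chr8:91801080-91801480, promoter) read 30.3, 15.8 and 20.6 in WT, 5.51, 6.85 and 1.44 in Mutyh-/-, 8.28, 12.5 and 2.86 in Ogg1-/- and 0.899, 8.33 and 5.75 in DKO. Every knockout library lay below every WT library, but no contrast passed in limma. This peak may have been listed through the WT libraries, which favours lower knockout values, so the separation is no evidence of a loss. The log2 fold change was -2.17 ± 1.15 in Mutyh-/- (unadjusted p = 0.0604, adjusted p = 0.971), -1.51 ± 1.15 in Ogg1-/- (unadjusted p = 0.190, adjusted p = 0.585) and -2.19 ± 1.15 in DKO (unadjusted p = 0.0581, adjusted p = 0.651). Foxd3 read 42.6, 3.32 and 12.4 in WT and between 0 and 21.6 in the knockouts, and the groups overlapped. Repeats held 67.6% to 85.7% of the reads in peaks of this table, so little of its depth fell on such genes.

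**Figure D3:**
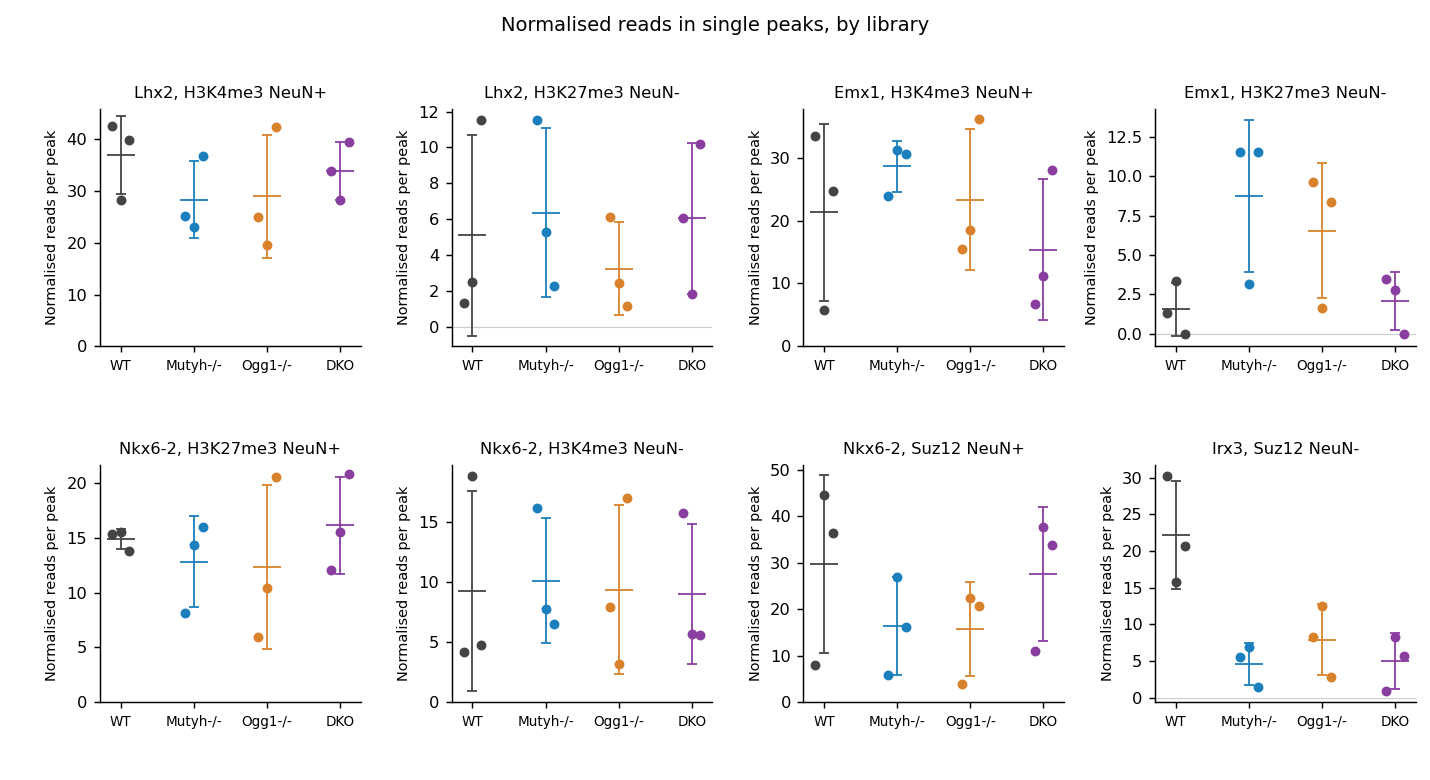
Normalised reads per peak (vertical axis, not comparable between tables) in the 3 libraries of each genotype at the highest peak of the gene and table named above each panel; points are libraries, short horizontal lines means and vertical bars SD. Lhx2 is high for H3K4me3 in NeuN+ nuclei, Nkx6-2 carries H3K27me3 and Suz12 there and H3K4me3 in NeuN- nuclei, and at Irx3 all knockout libraries lie below 15.8, the lowest WT value. The listing of the Irx3 peak may have favoured that order.

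Of the targeted genes, Ogg1 had 1 H3K4me3 peak in NeuN+ nuclei (chr6:113326823-113327223, promoter), with 15.4, 5.85 and 10.8 in WT and 17.9, 6.15 and 13.8 in Ogg1-/-, and Mutyh had none in any table. The position of the deletions relative to this peak is not given in the sources used here, so it does not check the genotype labels. Marker genes were used to check the sort. Of 12 neuronal markers 11 had an H3K4me3 peak in NeuN+ nuclei and 0 in NeuN- nuclei, where 5 (Gad1, Gad2, Nefl, Rbfox3 and Slc17a7) had H3K27me3. Of these 5, Gad1 and Gad2 had H3K27me3 in NeuN+ nuclei too and so do not separate the fractions by that mark. Markers of the cells a NeuN- sort should hold were almost absent from its H3K4me3 peaks: 1 of 8 for astrocytes (Slc1a2), 1 of 9 for the oligodendrocyte lineage (Olig1), 0 of 6 for microglia and 0 of 6 for vascular cells. In NeuN+ nuclei the counts were 3, 1, 0 and 1. H3K27me3 was listed there at 0 astrocyte, 5 oligodendrocyte, 1 microglial and 2 vascular genes. In NeuN- nuclei it was listed at 1 (Sox9), 1 (Pdgfra), 1 (C1qa) and 2 (Cldn5 and Flt1) of them.

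Each knockout was compared with the same WT libraries, which all 3 contrasts of a table share. Following the study, a differentially enriched region (DER) is a peak with unadjusted p below 0.05 and an absolute log2 fold change above 0.5, here from limma on log2(value + 1). By that definition 29 of 1074 member tests were DERs, 2.70% against 2.13% of all 68445 tests. They lay at 21 genes, with 8 higher and 21 lower in the knockout. H3K4me3 of NeuN+ nuclei gave 37884 of all tests but 66 of the members', so the shares within each table, given below, are the closer comparison. No member test passed an adjusted p of 0.05 over all peaks of its table (smallest 0.439), nor with edgeR (smallest 0.530) or DESeq2 (smallest 0.453). With edgeR 20 were below an unadjusted p of 0.05 (1.86%, against 3.70% of all tests), and with DESeq2 39 (3.63% against 3.63%). Over all peaks the share past the adjusted threshold was 0% in 12 of the 18 contrasts. In NeuN+ nuclei the others were 0.121% (Mutyh-/-) and 0.0484% (Ogg1-/-) for H3K27me3, and 0.129% (Mutyh-/-) in the Suz12 table. In NeuN- nuclei they were 0.122% (Mutyh-/-), 0.0612% (Ogg1-/-) and 0.0306% (DKO) for H3K4me3. The precision was limited: the median SE of a member's log2 fold change in NeuN+ nuclei was 0.64 (H3K4me3), 0.95 (H3K27me3) and 1.13 (Suz12). The study describes the libraries of a group as independent replicates. The limma p-values rest on a spread between libraries that was shared over peaks. For H3K27me3 and Suz12 it came wholly from the trend over all peaks of the table, not from the libraries of the single peak. For H3K4me3 it came in part from the peak itself.

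For H3K27me3 in NeuN+ nuclei the shares of members called lay near those of all peaks. In Mutyh-/- 6 of 157 were DERs (3.82%, against 3.78% of all 4132 peaks), in Ogg1-/- 7 (4.46% against 3.82%) and in DKO 5 (3.18% against 3.36%). The median log2 fold changes of the members were -0.20, -0.12 and -0.05, against -0.21, -0.11 and -0.01 over all peaks.
In Mutyh-/- all 6 DERs were lower. The promoter peak of En2 (chr5:28165302-28165702) read 14.2, 14.4 and 14.6 in WT and 0, 6.64 and 5.99 in Mutyh-/-, with no overlap (log2 fold change -2.03 ± 0.76, unadjusted p = 0.00712, adjusted p = 0.998 by limma). A Foxd3 peak 33561 bp upstream of the start read 12.0, 13.3 and 7.76 in WT and 4.06, 1.11 and 2.00 in Mutyh-/-. Both were still called without most single libraries, 5 and 4 of 6 left out in turn. Peaks that read higher in WT than in a knockout, here and below, may have been listed through WT libraries, which favours a lower knockout value.
The others were Irx1 at its promoter (5.48, 15.5 and 10.3 against 0, 0 and 7.99, with overlap), Tbx3, a limb and heart regulator, at its promoter (20.8, 8.86 and 14.6 against 9.13, 7.74 and 0, with overlap), Barhl2, a retina and diencephalon factor, at 41241 bp upstream (6.57, 3.32 and 16.4 against 1.01, 0 and 0.999) and Irx5 at 90053 bp downstream (4.38, 9.96 and 7.76 against 0, 0 and 2.00).
At Barhl2 and Irx5 the knockout libraries held 1 or 2 reads at most, so no fold change is given.

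In Ogg1-/- 4 H3K27me3 DERs were lower and 3 higher. Lower were Lhx1, a kidney and interneuron factor, at its promoter (6.57, 15.5 and 19.0 in WT against 2.97, 0 and 11.3), Barhl1 at its promoter (11, 9.96 and 19.0 against 0, 3.14 and 20.6), Tbx3 at the same promoter peak as in Mutyh-/- (against 0.991, 6.27 and 5.14) and Irx3 at 154300 bp upstream (6.57, 7.75 and 3.45 against 0, 0 and 1.03). Higher were Gata2 at its promoter (0, 15.5 and 6.03 against 8.92, 25.1 and 16.4), Otx1, a cortical layer factor, at 25555 bp downstream (2.19, 2.21 and 0 against 7.93, 11.5 and 3.08) and Six3 at 33368 bp upstream (2.19, 0 and 0 against 3.96, 4.18 and 9.25).
WT and Ogg1-/- overlapped at Lhx1, Barhl1 and Gata2 and not at Tbx3, Irx3, Otx1 and Six3. The WT values at Otx1 and Six3 were low, so these peaks may have been listed through knockout libraries, which favours a higher knockout value.
In DKO the same Otx1 peak read 10.9, 11.6 and 6.42 (log2 fold change 2.26 ± 0.92, unadjusted p = 0.0137, adjusted p = 0.998) and the Lhx3 promoter peak 15.3, 19.4 and 13.6, against 3.29, 1.11 and 10.3 in WT (1.86 ± 0.77, unadjusted p = 0.0165, adjusted p = 0.998). Lower in DKO were 2 Irx1 peaks, at the promoter (0, 0 and 9.63) and 158873 bp upstream (4.37, 0 and 7.22, against 7.67, 7.75 and 19.0 in WT), and Gsx1, a ventral forebrain factor, 38298 bp downstream (3.28, 0 and 5.62 against 8.76, 8.86 and 14.6).
At Otx1 the DKO, Ogg1-/- and Mutyh-/- libraries all read above the highest WT value of 2.21. These contrasts share the WT libraries, so the 3 values are not independent.

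**Figure D4:**
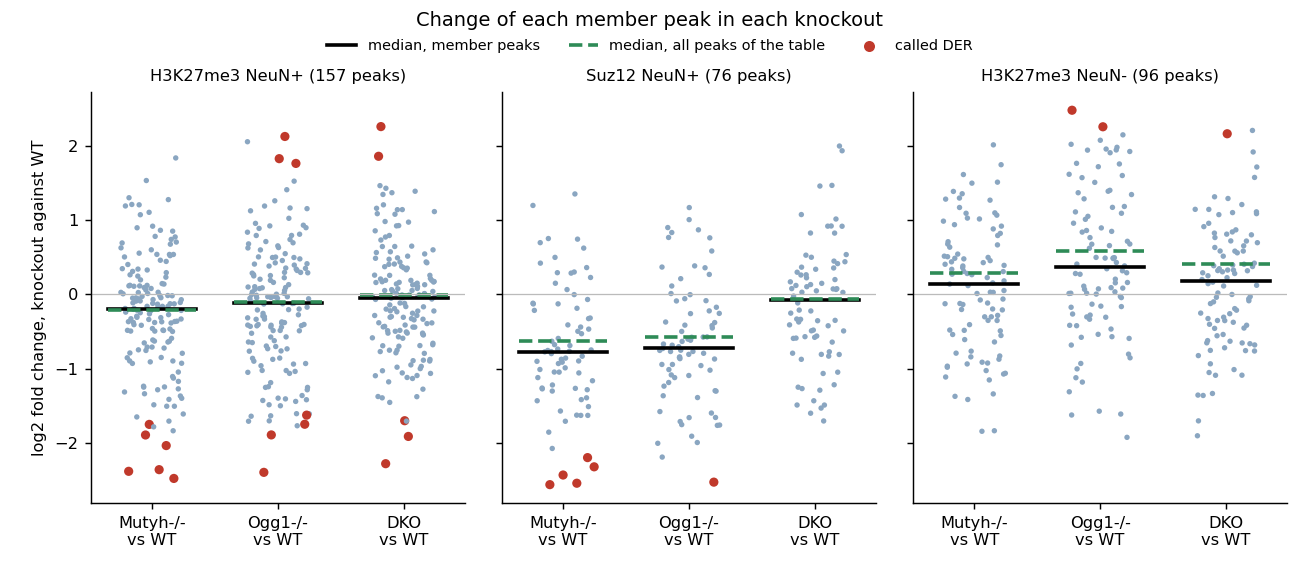
Log2 fold change of each member peak in each knockout against WT (vertical axis; points are peaks, jittered sideways), for H3K27me3 and Suz12 in NeuN+ and H3K27me3 in NeuN- nuclei; black lines are member medians and green dashed lines medians over all peaks of the table. Red points are DERs. The Suz12 member medians are -0.77, -0.72 and -0.07; with TMM factors the last becomes 0.06, and for H3K27me3 of NeuN- nuclei the medians in Mutyh-/- and DKO turn negative.

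In NeuN+ nuclei 61 of the members' 76 Suz12 peaks had a negative log2 fold change in Mutyh-/- and 61 in Ogg1-/-, against 39 in DKO. The member medians were -0.77, -0.72 and -0.07, and over all 775 peaks they were -0.63, -0.57 and -0.06, with 73.3%, 72.8% and 51.9% of peaks negative. Relative to the table the members were thus lower by 0.15 in Mutyh-/- and 0.15 in Ogg1-/- on the log2 scale. With TMM factors the medians of all peaks moved to -0.08 and -0.09 and those of the members to -0.22 and -0.18 (47 of 76 negative in each), so most of the shift depended on the scaling and the remainder was -0.14 and -0.09. With edgeR the member medians were -0.16 and -0.07, against 0.02 and 0.05 over all peaks, and with DESeq2 -0.10 and -0.09 against 0.09 and 0.03.
DERs were 5 of 76 in Mutyh-/- (6.58%, against 5.16% of all peaks), 1 in Ogg1-/- (1.32% against 3.74%) and 0 in DKO (2.58% of all), all lower in the knockout. With TMM factors 3 were called in Mutyh-/- (3.95%, against 5.03% of all peaks) and 0 in Ogg1-/- (4.26% of all). In DKO 2 were called with them (2.63% against 2.58%), both higher. Same-numbered Suz12 libraries of WT and Mutyh-/- in NeuN+ nuclei were taken as pairs, since their deviations from the group means correlated (r = 0.388, 0.186 and 0.119 over peaks). The labels give no pairing, and libraries of unlike number were not correlated, so whether the number links them was not tested. The block also spans Ogg1-/- and DKO, where r fell to 0.071 and 0.040. With a replicate block 10 member peaks were DERs in Mutyh-/- (13.2%), all 10 lower, with a smallest adjusted p of 0.331 by limma. Over all peaks 103 were (13.3%), against 40 without the block.
The 5 in Mutyh-/- were Sox1 (chr8:12396805-12397205, promoter), with 16.1, 32.7 and 29.5 in WT and 0, 26.9 and 4.06 in Mutyh-/-, Lhx5, a hippocampal and cerebellar LIM factor (chr5:120431988-120432388, promoter), with 17.4, 25.7 and 20.1 and 0, 3.11 and 15.2, and Pax7, a muscle and midbrain factor (chr4:139821284-139821684, in an intron 11323 bp into the gene), with 18.8, 30.7 and 21.5 and 0, 13.5 and 9.13. Foxa1 (3202 bp into the gene, in its last exon) read 8.05, 16.8 and 17.4 and 0, 6.21 and 1.01. Tbx15, a skeletal T-box factor (chr3:99253128-99253528, promoter), read 5.36, 13.9 and 6.71 in WT, 0.820, 1.04 and 0 in Mutyh-/- and 0, 0 and 2.82 in Ogg1-/-, where it was the only DER.
At 4 of the 5 peaks the groups did not overlap, Sox1 being the exception, and at each peak the first Mutyh-/- replicate held 1 read or none. A listing through WT libraries would favour this lack of overlap. Tbx15 read 0, 16.7 and 18.9 in DKO. Leaving Tbx15 aside, whose knockout libraries held too few reads for a fold change, the log2 fold changes ran from -2.56 ± 1.26 (Foxa1) to -2.20 ± 1.05 (Pax7), with unadjusted p from 0.0313 to 0.0424 and an adjusted p of 0.916 by limma.

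The first replicates of all 4 genotypes had the lowest Suz12 totals over the members in NeuN+ nuclei, as the plot of sums shows. Their summed normalised reads were 593 in WT, 218 in Mutyh-/-, 320 in Ogg1-/- and 459 in DKO, against 786 to 1623 in the other 8 libraries, and the members took 3.34% to 6.37% of the reads outside repeats there against 7.29% to 9.71%. For H3K27me3 in NeuN+ nuclei the first replicates of the 3 knockouts were lowest as well (559, 666 and 740) but that of WT was not (1077), and the remaining libraries read 1026 to 1479. The labels give no batch for these libraries, and the part of this difference in the results was not tested. Without the 4 first replicates, a setting added after the sums were seen, the median log2 fold changes of the Suz12 members were -0.48 in Mutyh-/- and -0.62 in Ogg1-/-, against -0.33 and -0.40 over all peaks, and 5 and 6 member peaks were DERs, all lower (6.58% and 7.89%, against 6.71% and 6.45% of all peaks). In DKO the medians without them were -0.04 and 0.03, and 3 member peaks were DERs, 1 of them higher (3.95% against 3.1% of all peaks).
For H3K27me3 in NeuN+ nuclei the same setting moved the member medians from -0.20 to -0.03 in Mutyh-/-, from -0.12 to 0.08 in Ogg1-/- and from -0.05 to 0.11 in DKO, and those of all peaks to 0.02, 0.11 and 0.20, so the direction of the member medians in Ogg1-/- and DKO rested on the first replicates.

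**Figure D5:**
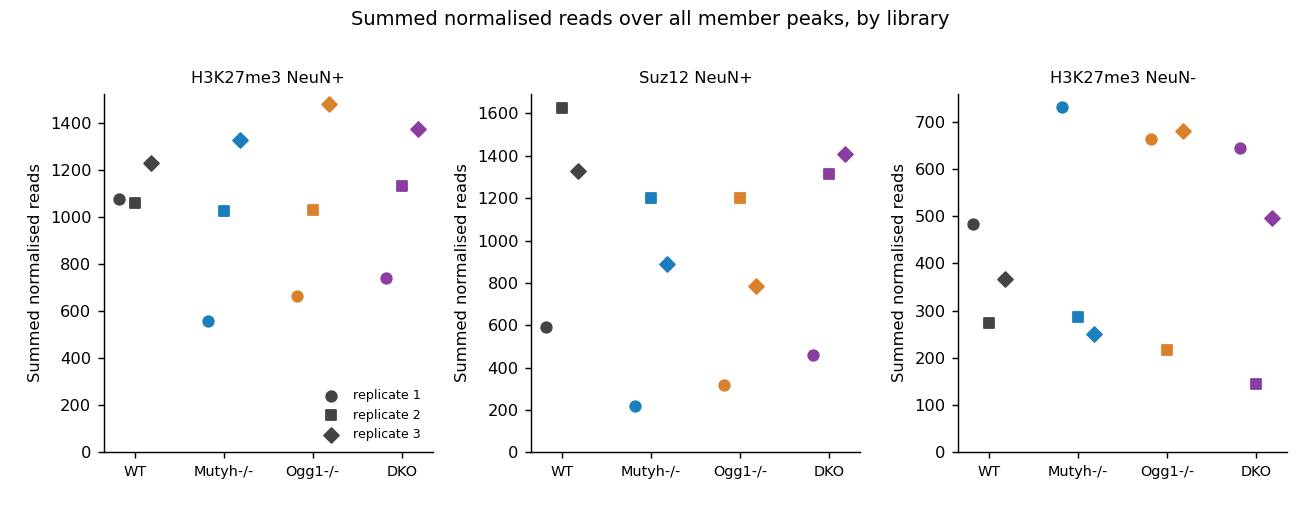
Summed normalised reads over all member peaks (vertical axis) in each library, by genotype (horizontal axis, colour) and replicate number (symbol). For Suz12 in NeuN+ nuclei the 4 first replicates read 218 to 593 and the other 8 libraries 786 to 1623, whereas for H3K27me3 of NeuN- nuclei the first replicates read 484 to 730 and the others 145 to 681.

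For H3K4me3 few members were called. In NeuN+ nuclei 0 of 22 member peaks were DERs in Mutyh-/- (0.911% of all 12628 peaks), 0 in Ogg1-/- (0.966%) and 1 in DKO (1.46%). That was Pax3, at the exon of an unnamed transcript 19746 bp upstream (chr1:78216880-78217280), with 18, 6.83 and 14 in WT and 0, 8.85 and 7.58 in DKO (log2 fold change -1.57 ± 0.77, unadjusted p = 0.0482, adjusted p = 1.00). The groups overlapped, and the call was lost under edgeR and DESeq2. The Lhx2 peak at the first start read 25.1, 23 and 36.8 in Mutyh-/-, 25, 19.5 and 42.3 in Ogg1-/- and 33.8, 28.1 and 39.4 in DKO, all overlapping WT, with log2 fold changes between -0.39 ± 0.39 and -0.11 ± 0.39. In NeuN- nuclei none of the 4 members was a DER, where 2.94% (Mutyh-/-), 3.36% (Ogg1-/-) and 2.29% (DKO) of all peaks were.

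In NeuN- nuclei H3K27me3 was a DER at 0 of 96 member peaks in Mutyh-/- (2% of all 1698 peaks), at 2 in Ogg1-/- (4.18%) and at 1 in DKO (2.3%), all 3 higher. With TMM factors 9 of 288 member tests were called, 3 of them higher (3.13%, against 4.06% of all 5094 tests), so the direction rested on the scaling. The member medians of 0.15, 0.36 and 0.18 lay below those of all peaks (0.29, 0.58 and 0.41) and became -0.04, 0.05 and -0.07 with TMM factors, -0.11, -0.15 and -0.17 with edgeR and -0.21, -0.34 and -0.42 with DESeq2. Without the 4 first replicates they were -0.10, 0.40 and -0.18, so the sign of these medians depended on the scaling and on those libraries. Foxa1 (chr12:57541549-57541949, in the 3' UTR, 51.6% repeat sequence) had no read in any of 3 WT libraries and 7.01, 1.63 and 7.15 in Ogg1-/-. Sox1 at 2000 bp from its start read 0, 0.829 and 0 in WT and 10.5, 4.09 and 2.38 in Ogg1-/-. Msx2, a skull and neural crest factor, read 0, 3.32 and 0 in WT and 7.80, 5.55 and 5.68 in DKO.
The groups did not overlap at these 3 peaks, and all WT values were at or near the level of single reads. With so few WT reads such peaks can hardly have been listed through WT libraries. The listing itself therefore favoured higher knockout values, and the lack of overlap is no evidence of a gain.
For Suz12 in NeuN- nuclei 0 of the 3 member peaks were DERs in Mutyh-/- (3.85% of all 312 peaks) and Ogg1-/- (11.2%), and 1 in DKO (6.73%). That was Foxa1 6679 bp from its start, with 16.8, 4.15 and 13.7 in WT and 0, 0 and 5.75 in DKO, which overlapped.

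An effect in DKO beyond the added effects of both single knockouts was tested as DKO - Ogg1-/- - Mutyh-/- + WT. No member peak passed an adjusted p of 0.05 by limma (smallest 0.627), and over all peaks 0% passed in 5 of the 6 tables and 0.0968% for H3K27me3 in NeuN+ nuclei. Below an unadjusted p of 0.05 were 13 of 358 (3.63%, against 2.04% of all 22815 peaks). H3K4me3 of NeuN+ nuclei gave 12628 of all peaks but 22 of the members', so the pooled shares are not alike. Within tables they were 3.82% against 3.92% (H3K27me3, NeuN+), 5.26% against 5.16% (Suz12, NeuN+) and 3.13% against 2.47% (H3K27me3, NeuN-). With edgeR 10 were below an unadjusted p of 0.05 (2.79%, against 3.59% of all peaks) and with DESeq2 13 (3.63% against 3.66%), and 0 passed. For Suz12 in NeuN+ nuclei 71 of 76 member peaks had a positive value, with a median of 1.00 against 1.09 over all peaks, but with TMM factors the medians were 0.11 and 0.27 and 37 of the 76 were negative. The change in NeuN+ nuclei was compared with that in NeuN- nuclei at the 13 member peaks that overlapped between fractions: 2 for H3K4me3 (En2 and Msx1), 10 for H3K27me3 (Barhl1, Irx2, Nkx6-1, Pax6, Pax8, Sox1 and Tbx15) and 1 for Suz12 (Foxd3). None of the 39 tests was below an unadjusted p of 0.05 (smallest adjusted p 0.880, limma), and 0% of all shared peaks passed the adjusted threshold.

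The 94 other genes of the same families on the list gave lower shares of Polycomb peaks. In NeuN+ nuclei 57 (60.6%) had an H3K27me3 peak, 42 (44.7%) a Suz12 peak and 42 (44.7%) an H3K4me3 peak, against 84.5%, 77.6% and 31.0% of the 58. In NeuN- nuclei the counts were 49, 2 and 12. These lists were chosen with results known, so the difference is a description. Over the 3 contrasts and all antibodies and fractions, 26 of their 1011 peak tests were DERs (2.57%, against 2.13% of all tests and 2.70% of the members'), 15 of them higher, and none passed the adjusted threshold.
The regulators of the marks looked unlike the members. All 11 PRC2 genes, 18 PRC1 genes, 6 H3K4 methyltransferase genes and 2 H3K27 demethylase genes on the lists had an H3K4me3 peak in NeuN+ nuclei, and 4, 7, 4 and 1 had one in NeuN- nuclei. Among those with H3K27me3 or Suz12, Jarid2, a PRC2 cofactor, and Cbx8, a reader of H3K27me3 in PRC1, carried both in NeuN+ nuclei, Aebp2 carried H3K27me3 and Kmt2a carried Suz12 there. At PRC2 genes 1 of 81 tests was a DER (1.23%) and at PRC1 genes 0 of 132, against 2.13% of all tests. At the methyltransferase genes 2 of 36 were (5.56%) and at the demethylase genes 0 of 12. The PRC2 call was for H3K27me3 in NeuN+ nuclei, where 3.65% of all tests were called. The other 2 were at Kmt2a for Suz12 in NeuN- nuclei, where 7.26% were. None passed an adjusted p of 0.05, and counts this small are no result about these genes.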

How the data were processed

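Nuclei from 3 libraries per genotype, antibody and NeuN fraction were measured by ChIP-seq, and the 24 input libraries were not analysed here. The authors aligned reads to GRCm38/mm10 with Bowtie2 (2.3.5.1), called enriched regions and counted reads over consensus peaks with DiffBind (3.10.1). Consensus peaks were those found in at least 2 of 3 replicates, and ChIPseeker (1.36) attached each to the closest gene. A peak can thus be listed through the group in which it is high, which favours a difference from the other groups. The deposited values are a signal, reads scaled by 1 factor per library; every value came back as a whole read count (100% within a tolerance of 0.01), which edgeR and DESeq2 used as alternatives. Libraries held 6652 to 548706 reads in peaks, and the median member peak 3 to 15 reads per WT library.

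In R 4.3.3, limma (3.58.1, trend) was fitted to log2(value + 1) over each whole table with genotype as the only term, so fold changes understate those of low peaks. Benjamini-Hochberg adjustment ran over all peaks of a contrast, two-sided. edgeR (4.0.16) and DESeq2 (1.42.0) were alternatives, with other pseudocounts, TMM factors, a filter on low peaks, robust fitting, a replicate block and each library left out; the fit was tested on simulated data. The numbers of libraries were taken as pairs where every pair's deviations correlated above 0.1, which held for Suz12 of NeuN+ nuclei in Mutyh-/- alone. Named with values were the targeted genes, members with all 3 marks in NeuN+ nuclei, the 3 highest per table, every DER, and members with H3K4me3 in 1 fraction and a Polycomb mark in the other; a few others were named after their values were seen. The members and lists were chosen with earlier results of these data known.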

Additional observations from a re-analysis of the deposited data

How the results depend on the processing

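No member test passed an adjusted p of 0.05 under any setting that was run, while the number of DERs moved in most tables. For H3K4me3 of NeuN+ nuclei 1 DER became 0 without the lowest 25% of peaks, with edgeR, DESeq2 or robust fitting, and 2 with a replicate block. The member share was 1.52% at first (1.11% of all tests), 0% with edgeR (3.95%) and DESeq2 (2.93%), and 3.03% with the block (1.44%). For Suz12 of NeuN+ nuclei 6 became 3 without the lowest 25% of peaks, 0 with edgeR, 20 with a replicate block and 14 with replicates 2 and 3 only. The member share was 2.63% at first (3.83% of all tests), 0% with edgeR (2.84%), 8.77% with the block (10.3%) and 6.14% with replicates 2 and 3 (5.42%). For H3K27me3 of NeuN- nuclei 3 became 0 without the lowest 25% of peaks, 9 with TMM factors, 7 with edgeR, 14 with DESeq2, 9 with a replicate block and 5 with replicates 2 and 3 only. The member share was 1.04% at first (2.83% of all tests), 3.13% with TMM factors (4.06%) and 2.43% with edgeR (4.10%). With DESeq2 it was 4.86% (4.83%), with the block 3.13% (5.77%) and with replicates 2 and 3 1.74% (1.83%). For Suz12 of NeuN- nuclei 1 became 0 with a pseudocount of 0.5, 5 with a pseudocount of 5, 4 with TMM factors, 3 with DESeq2, 3 with a replicate block and 0 with replicates 2 and 3 only. These counts are of 9 tests, and the shares of all tests were 7.26% at first, 6.94% (TMM factors), 6.62% (DESeq2), 8.97% (block) and 7.26% (replicates 2 and 3). The setting with replicates 2 and 3 only was chosen after seeing the data. For the filter, the pseudocounts, robust fitting and single libraries left out, the share over all peaks is not given here. Those counts are therefore no result about the members. Counting promoter peaks alone left 29 of 50 members with H3K27me3 in NeuN- nuclei. The causes were not tested. Leaving out 1 library at a time gave 12 to 27 DERs for H3K27me3 (18 with all libraries), 0 to 2 for H3K4me3 and 1 to 12 for Suz12 in NeuN+ nuclei, and 2 to 10, 0 to 0 and 0 to 3 in NeuN- nuclei. The median member peak held 3 to 15 reads per WT library, which limits the size of difference that could be detected. With a replicate block 13 member peaks were DERs for H3K27me3 of NeuN+ nuclei in Ogg1-/- (7 without) and 6 for Suz12 (1 without), while those of all peaks rose from 158 to 218 of 4132 and from 29 to 98 of 775, but the replicate numbers did not pass the pairing check there.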
